A study of Mus musculus with 2 samples.

Results

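The Mir379 to Mir410 cluster is the downstream of the 2 miRNA clusters in the imprinted Dlk1-Dio3 domain of mouse chromosome 12. Its members were chosen by position alone, as every gene ID that GENCODE M21 types as miRNA on the plus strand of chr12 (mm10) with a start from 109700000 to 109760000. This rule found 39 of the 2202 miRNA genes in the deposited tables. The first hairpin, Mir379, starts at position 109709060 and the last, Mir3072, ends at 109747960, a span of 38.9 kb.

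The libraries were microRNA-seq libraries, which read RNA inserts under 30 nt, from total RNA of whole heart. Both came from female B6CASTF1/J mice aged 10 days, F1 hybrids of the strains C57BL/6J and CAST/EiJ. The labels call them biological replicates 1 and 2, give a separate biosample for each, and list neither a treatment nor another tissue or age. All values therefore describe 1 group of 2 hearts, and the tables do not separate reads from the 2 parental chromosomes.

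Genes of the Dlk1-Dio3 domain are expressed from one parental chromosome. Its non-coding RNAs, which include Meg3, Rian, Mirg and the miRNAs between them, come from the maternally inherited copy, and the protein-coding genes Dlk1, Rtl1 and Dio3 from the paternal one. Each miRNA is cut from a hairpin in a long transcript, and one or both arms (5p and 3p) become a mature miRNA that finds its target mRNAs mainly through its seed. The cluster is known above all from brain, placenta and the newborn, and in heart and skeletal muscle the domain's miRNAs are known targets of MEF2 transcription factors.

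RefSeq mature sequences (GRCm38.p6) were matched to 38 of the 39 members, all but Gm27379, and gave 71 mature miRNAs with 65 different seeds. Below are the arms of the 6 members with the highest counts that RefSeq lists, written 5′ to 3′ with the seed (bases 2 to 8) in capitals, since these hairpins held most of the cluster's reads. The counts are per hairpin gene, so they do not tell the 5p arm from the 3p arm.
miR-379-5p: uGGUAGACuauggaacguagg
miR-379-3p: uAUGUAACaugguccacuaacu
miR-411-5p: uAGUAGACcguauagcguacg
miR-411-3p: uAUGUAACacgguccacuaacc
miR-541-5p: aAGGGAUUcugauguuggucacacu
miR-541-3p: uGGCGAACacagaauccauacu
miR-487b-5p: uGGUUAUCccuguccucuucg
miR-382-5p: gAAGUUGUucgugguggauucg
miR-382-3p: uCAUUCACggacaacacuuuuu
miR-154-5p: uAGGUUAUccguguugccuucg
miR-154-3p: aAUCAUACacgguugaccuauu

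The neighbours Mir379 and Mir411 share the seed AUGUAAC on their 3p arms. Their 5p arms differ at 7 of 21 positions, counted from 1 at the 5′ end of miR-379-5p, and the first of these, G2A, lies in the seed. Within the cluster 12 mature miRNAs fell into 6 pairs with the same seed. The other pairs are shown to mark which members could share targets through the seed.
miR-1193-5p: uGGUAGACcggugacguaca
miR-376c-5p: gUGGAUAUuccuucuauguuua
miR-376b-5p: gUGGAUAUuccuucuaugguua
miR-494-5p: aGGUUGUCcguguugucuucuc
miR-410-5p: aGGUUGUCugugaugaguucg
miR-496a-5p: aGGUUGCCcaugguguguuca
miR-453: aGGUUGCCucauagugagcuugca
miR-758-5p: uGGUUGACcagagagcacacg
miR-1197-5p: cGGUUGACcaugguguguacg
The seed of miR-1193-5p is that of miR-379-5p. A further 11 mature miRNAs of the cluster share a seed with a RefSeq miRNA outside it, for example miR-329-3p with miR-362-3p.

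The members also have short letters in common beyond these pairs. The letters GGUU stand within the first 8 bases of 13 of the 71 mature miRNAs (18.3%), among them miR-299a-5p, miR-487b-5p, miR-154-5p and miR-409-5p, against 45 of 1679 RefSeq mouse mature sequences (2.68%). The letters ACACGG stand in 5 of 71 (7.04%), on the 3p arms of Mir411, Mir323, Mir494, Mir485 and Mir154, against 7 of 1679 (0.417%). Both letter strings were picked after the sequences were seen, only the strand of the miRNA was searched, and the members are among the 1679.

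The cluster was present in both hearts, at a mean of 0.915% of the counts on named miRNA genes and 0.383% of all reads. It held 44779 counts in replicate 1, or 1.05% (exact 95% binomial interval 1.04 to 1.06%), and 35718 counts in replicate 2, or 0.779% (0.771 to 0.787%). The SD of the share on named genes was 0.192 percentage points (n = 2). These intervals cover binomial counting error only. They treat each read as an independent molecule, so PCR copies of a molecule would make them too narrow.

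Most members were detected, a larger share than among miRNA genes at large. A gene counted as detected when each library gave it at least 10 counts, which 33 of 39 members (84.6%) reached, against 15.7% of all 2202 miRNA genes. Levels are given as CPM, counts scaled to a common total of counts on named miRNA genes. By mean CPM, 3 members stood at 1000 or more, 8 between 100 and 1000, 17 between 10 and 100, and 11 under 10. The detected members spanned a 414-fold range of CPM in replicate 1 and a 288-fold range in replicate 2.

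**Figure D1:**
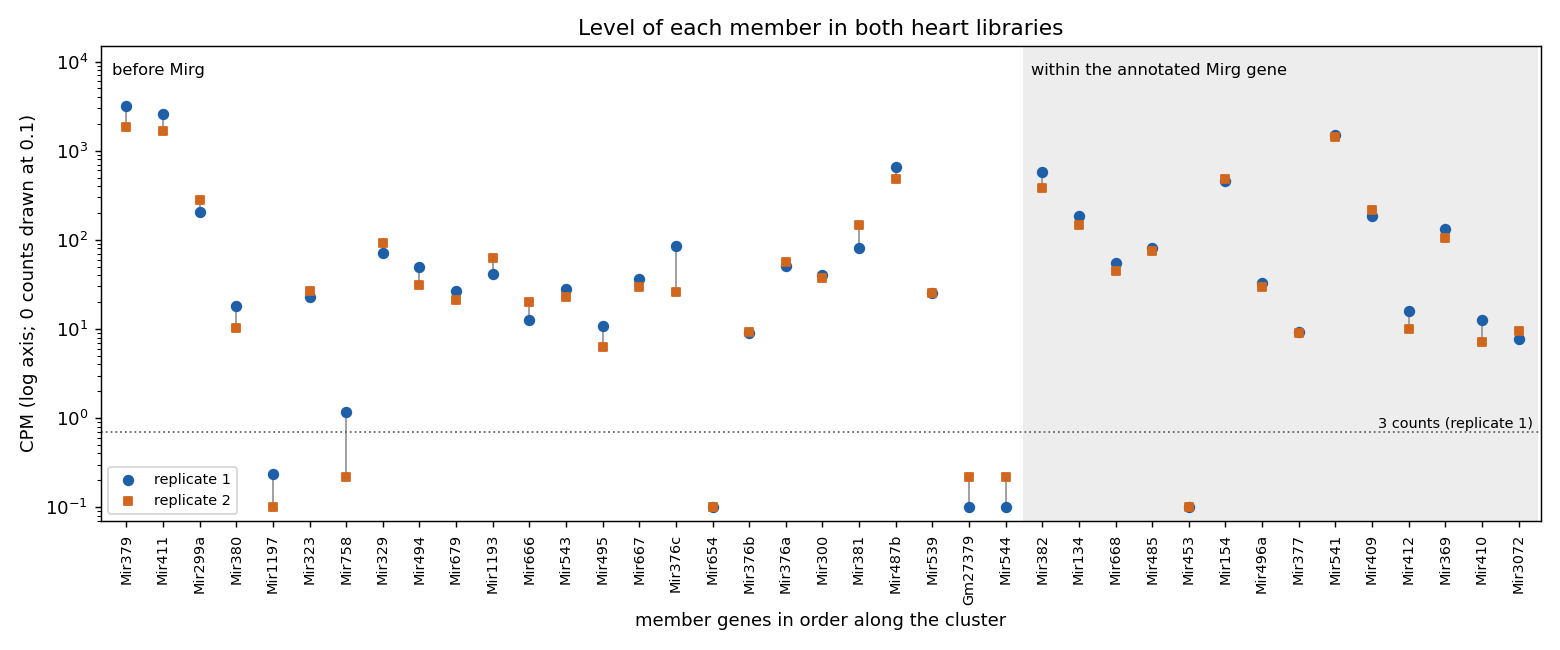
CPM of the 39 members (log axis, with 0 counts drawn at 0.1) in their order along the chromosome, one point for each library, with the genes inside the annotated Mirg gene shaded. Mir379, Mir411 and Mir541 stand above 1000 CPM in both libraries, high and low members alternate along the cluster, and the dotted line marks 3 counts.

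Mir379, the first hairpin of the cluster, was its most abundant member. It had 13663 counts (3207 CPM) in replicate 1 and 8359 counts (1824 CPM) in replicate 2, a mean of 2515 ± 978 CPM (SD, n = 2) and rank 43 among the 2202 miRNA genes. Mir411, the next hairpin downstream and a sequence relative of Mir379, had 10963 counts (2573 CPM) and 7549 counts (1647 CPM), with rank 52. Both were higher in replicate 1, and both lay above every other member in each library. Together they made up 55.0% of the cluster's counts in replicate 1 and 44.5% in replicate 2.

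Mir541, which lies in an intron of Mirg near the other end of the cluster, had rank 3 in the cluster and was the most even of its leading members. It had 6387 counts (1499 CPM) in replicate 1 and 6543 counts (1428 CPM) in replicate 2, a mean of 1463 ± 50.5 CPM (SD, n = 2). The 3 genes kept the same order in each library. The ranges of Mir379 and Mir411 over the 2 hearts overlapped, and both lay above the range of Mir541. Within each library Mir379 had more counts than Mir411, with a log2 ratio of 0.32 (0.28 to 0.35) in replicate 1 and 0.15 (0.10 to 0.19) in replicate 2.

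The next 3 members were Mir487b, Mir382 and Mir154, and their ranges over the 2 hearts overlapped. Mir487b had 664 and 478 CPM, Mir382 had 583 and 379 CPM, and Mir154 had 455 and 486 CPM in replicates 1 and 2. Mir154, which has given its name to a family of related miRNAs in this cluster, was the lowest of these in replicate 1 and the highest in replicate 2. The 6 leading members held 85.5% and 80.1% of the cluster's counts, and the leading 10 held 92.2% and 89.6%.

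**Figure D2:**
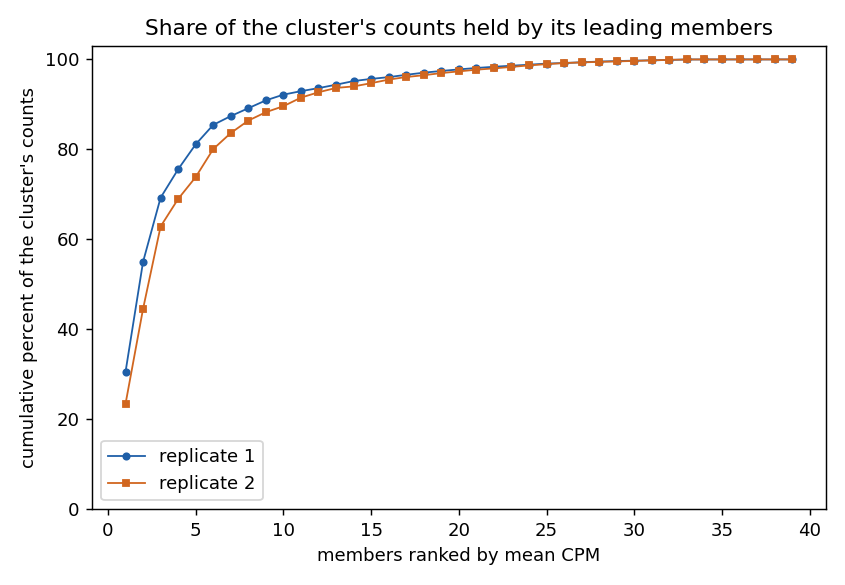
Cumulative percent of the cluster's counts (y axis) held by its members ranked by mean CPM (x axis), one line for each library. The first 3 members hold 69.3% of the counts in replicate 1 and 62.9% in replicate 2, and the line for replicate 1 lies above that for replicate 2 over the leading members.

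Below these stood 5 further members with a mean above 100 CPM. Mir299a had 205 and 278 CPM in replicates 1 and 2. Mir409 had 184 and 215 CPM. Both of these were higher in replicate 2. Mir134, known from neurons, where it limits the size of dendritic spines, had 184 CPM in replicate 1 and 146 CPM in replicate 2. Mir369 had 134 and 104 CPM. Mir381 had 81.4 and 149 CPM, so that it lay below Mir134 and Mir369 in replicate 1 and, with 681 counts against 668, level with Mir134 in replicate 2.

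Several further members with known roles in heart, muscle or nerve ran from rank 12 (Mir329) to rank 33 (Mir495) in the cluster. Mir410 and Mir495, MEF2-regulated miRNAs known to promote the proliferation of newborn heart muscle cells, had 53 and 33 counts and 46 and 29 counts in replicates 1 and 2. Their mean levels were 9.82 ± 3.70 CPM and 8.56 ± 3.16 CPM (SD, n = 2). Both lay at the low end of the detected members in each library. Mir494 had 49.5 and 31.2 CPM. Mir485, known from synapses, had 80.3 and 75.3 CPM and differed little between the hearts. Mir329, which with Mir134 and Mir381 is induced by activity in neurons, had 70.9 and 92.7 CPM.

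The Mir376 hairpins, known in brain for adenosine-to-inosine editing, differed in level and in spread. Mir376a had 50.7 and 56.1 CPM in replicates 1 and 2, and Mir376b had 8.92 and 9.16 CPM. Mir376c had 361 counts (84.7 CPM) in replicate 1 and 120 counts (26.2 CPM) in replicate 2. Mir376a and Mir376b were thus even between the hearts and Mir376c was not. These hairpins, Mir376c and Mir376b, are the 2 members with at least 22 nt in a row in common with a different miRNA gene, and their mature 5p arms differ by the single substitution U19G (miR-376c-5p first). Reads placed at more than 1 position are not counted on genes, so the levels of Mir376c and Mir376b are uncertain. Their hairpins (mm10, plus strand, M21 annotation) are shown with the shared run of 31 nt in capitals.
Mir376c, chr12:109722718-109722803: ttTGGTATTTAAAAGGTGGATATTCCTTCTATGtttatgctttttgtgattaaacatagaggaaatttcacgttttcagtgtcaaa
Mir376b, chr12:109723458-109723539: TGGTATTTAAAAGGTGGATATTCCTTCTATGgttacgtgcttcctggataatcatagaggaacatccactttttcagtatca

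The rest of the 20 leading members lay close together. Mir1193 had 41.1 and 62.0 CPM in replicates 1 and 2, and Mir668 had 54.7 and 44.7 CPM. Mir300, a sequence relative of Mir381, had 170 counts in each library, and Mir667 had 156 and 134. Mir380 and Mir666, with 14.3 ± 5.69 and 16.3 ± 5.08 CPM (SD, n = 2), were among the low detected members. The remaining detected members, Mir496a, Mir543, Mir539, Mir323, Mir679, Mir412, Mir377 and Mir3072, lay between 8.67 and 31.3 CPM.

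The last 6 members stood at or near 0. Mir654 and Mir453 had no count in either library, which allows up to 3 counts, or 0.704 CPM in replicate 1 and 0.655 CPM in replicate 2. Mir758 had 5 counts and 1 count, and Mir1197 had 1 and 0. Mir544 and Gm27379 each had 0 counts in replicate 1 and 1 in replicate 2. Mir453 and Mir496a share a seed on the arms shown above, and only Mir496a was detected, with 141 and 135 counts. The hairpin of Mir758 shares a run of 21 nt near its 3′ end with that of Mir411, whose counts were 10963 and 7549. In both hairpins this run begins inside the mature 3p arm and continues past its end, so it holds no whole mature arm. Whether it affected the counts was not tested. Mir1197 and Mir758 form a seed pair in which neither gene was detected.

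Level did not follow position along the cluster. Across the 39 members, Spearman's rho of mean CPM with distance from Mir379 was -0.043, a description over genes of the same 2 libraries. Of the hairpins, 25 lie before the annotated start of Mirg (chr12:109729764-109749460) and 14 within it, of which 4 lie inside a Mirg exon, 5 overlap an exon in part and 5 lie in introns. The 25 genes before Mirg held 69.1% of the cluster's counts in replicate 1 and 62.3% in replicate 2. Mir379 and Mir411 were set aside after their values were seen. Without them, the other 23 held 14.1% and 17.7%, less than the 30.9% and 37.8% of the 14 genes within Mirg. Mir541 was kept among those 14 and alone held 14.3% and 18.3%, so this gap depends on which leading genes are set aside.

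Hairpins side by side often differed by more than the libraries did. Between neighbours, levels were compared as counts per base of annotated hairpin, whose lengths ran from 61 to 123 bases. Inserts were under 30 nt, so counts need not scale with hairpin length, and this division is only a choice of measure. Of the 32 pairs of consecutive detected members, 22 were at least 2-fold apart in the same direction in both libraries, 11 at least 5-fold and 7 at least 10-fold. In counts not divided by length these numbers were 22, 12 and 7. The widest was Mir541 over Mir377, at 124-fold in replicate 1 and 121-fold in replicate 2. Mir487b stood 23.9-fold and 17.0-fold above Mir539. Such gaps also occurred between hairpins that almost touch. Mir409 lies 52 bp before Mir412 and stood 11.9-fold and 21.7-fold above it, and Mir369 lies 49 bp after Mir412 and stood 8.60-fold and 10.5-fold above it. Mir379 and Mir411 were 1.55-fold and 1.38-fold apart per base, and 1.25-fold and 1.11-fold apart in counts not divided by length. The order of the members by CPM and by counts per base was nearly the same (rho 0.99), and 9 of the 10 leading members were shared.

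Among the cluster's 3 leading genes, the libraries differed in Mir379 and Mir411 and not detectably in Mir541. Each heart gave 1 library, so differences between the hearts and between library preparations cannot be told apart, here and throughout. Differences between the libraries are log2 ratios of replicate 2 over replicate 1, after TMM scaling (trimmed mean of M values) and with a prior count of 0.5, each with an exact 95% interval. An exact binomial test with Benjamini-Hochberg adjustment over the 375 miRNA genes with at least 20 counts in sum compared these 2 libraries, not conditions. Of the 33 members tested, 17 (51.5%) differed beyond counting noise at an adjusted p under 0.05, against 55.2% of all genes tested. Of these, 10 members (30.3%) were higher in replicate 1, against 29.1% of all genes, and 7 (21.2%) were higher in replicate 2, against 26.1%. All these shares were close to the background.

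**Figure D3:**
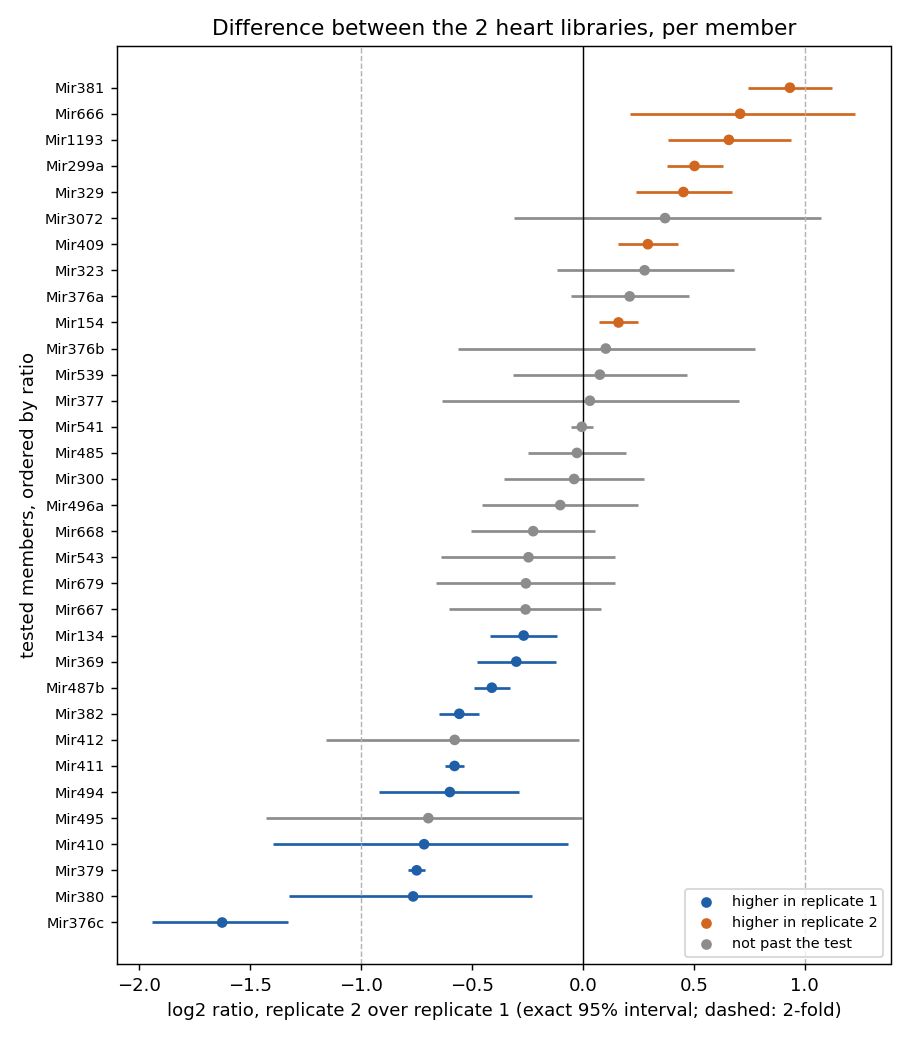
Log2 ratio of replicate 2 over replicate 1 (x axis) with its exact 95% interval for the 33 tested members, ordered by ratio, colored by the outcome of the exact binomial test. Mir376c alone lies beyond the dashed 2-fold lines, and the abundant Mir379 and Mir411 have the narrowest intervals among the members higher in replicate 1.

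Mir379 was lower in replicate 2 by a log2 ratio of -0.75 (interval -0.79 to -0.71) and Mir411 by -0.58 (-0.62 to -0.53). The log2 ratio of Mir382 was -0.56 and that of Mir487b -0.41. Mir541, between them in level, did not differ beyond counting noise, with a log2 ratio of -0.004 (-0.05 to 0.05). Scaled by total counts its log2 ratio was -0.070, with adjusted p = 0.0114 in the exact binomial test. With DESeq2 size factors, which were 1 for both libraries and so left counts unscaled, it was 0.035 and not called. The members of rank 1 and 2 were thus both lower in replicate 2, by log2 ratios whose intervals did not overlap. Under TMM scaling Mir541, of rank 3, did not differ, to the precision of its interval. The other members higher in replicate 1 were Mir380 (-0.76), Mir410 (-0.71), Mir494 (-0.60), Mir369 (-0.30), Mir134 (-0.27) and Mir376c. Mir410 lost its call under other settings, with adjusted p = 0.0722 in the exact binomial test with DESeq2 size factors.

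Among the 7 members higher in replicate 2, Mir381 had the largest log2 ratio, 0.93 (0.75 to 1.12). Mir666 followed with 0.71, Mir1193 with 0.66, Mir299a with 0.50 and Mir329 with 0.45. Mir409 and the abundant Mir154 differed less, by 0.29 and 0.16. Mir154 also lost its call when libraries were scaled by total counts, with adjusted p = 0.0604 in the exact binomial test. Mir300, whose hairpin shares a run of 16 nt with that of Mir381, was not called and had a log2 ratio of -0.039 (-0.35 to 0.28). The difference between these 2 genes was not tested.

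Only 1 of the 33 members, Mir376c, was called and also 2-fold or more apart (3.03%, against 10.7% of all genes tested), with a log2 ratio of -1.62 (-1.94 to -1.33). Its level is uncertain because of the 31 nt run it shares with Mir376b. The other 32 members (97.0%) lay within 2-fold between the hearts, as did 331 of the 375 genes tested (88.3%). Over genes with at least 100 counts in sum, the SD of the log2 ratio was 0.54 for 28 members and 0.70 for all 266 such genes. The summed count of the tested members had a median of 438, against 487 over all genes tested.

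**Figure D4:**
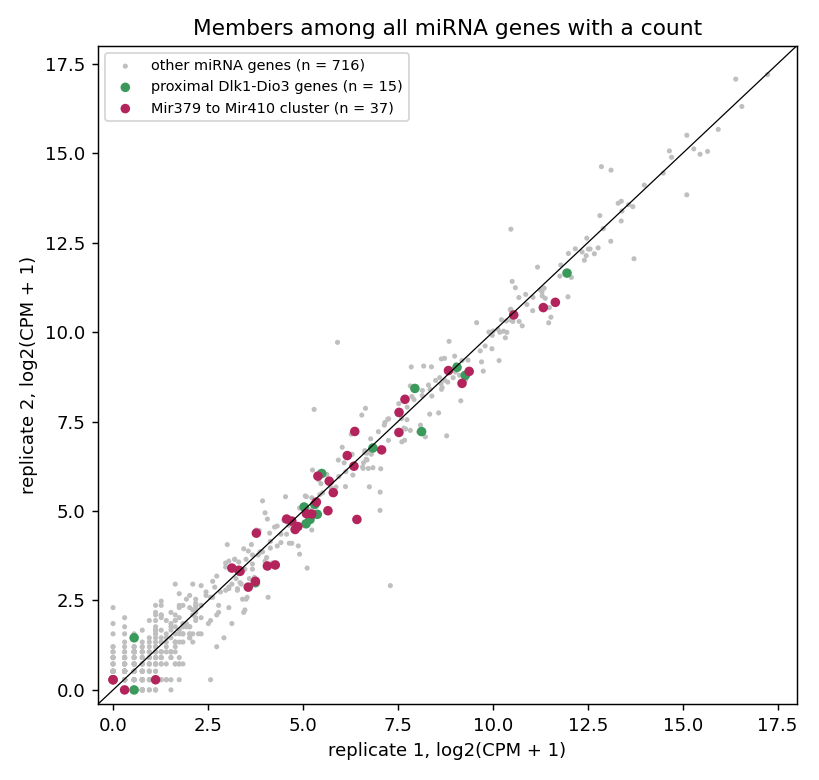
Level in replicate 2 against replicate 1, as log2(CPM + 1), for every miRNA gene with a count in either library, with the cluster's 37 such genes, the 15 such genes of the proximal cluster and the other 716 marked apart. The line marks equal levels: Mir379 and Mir411, the cluster's upper 2 points, lie below it, and one member (Mir376c) lies well below it at a middle level.

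Summed over all members, the cluster's log2 ratio was -0.36 (-0.39 to -0.34). Mir379 and Mir411 together had -0.67 (-0.70 to -0.64), and the other 37 members together had -0.064 (-0.092 to -0.035). The lower cluster share in replicate 2 therefore lay mostly in 2 genes. The median log2 ratio over the 33 tested members was -0.10, against -0.015 over all genes tested. By place, the 23 other genes before Mirg had a summed log2 ratio of -0.033 (-0.084 to 0.018) and the 14 genes within Mirg of -0.078 (-0.11 to -0.043). The ratio did not follow position (rho 0.060 over the 33 members) or level (rho -0.012).

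Hairpin levels were also summed over pairs with a shared seed, where the more abundant member by arithmetic weighs more in the sum. The AUGUAAC pair, Mir379 and Mir411, summed to 5780 CPM in replicate 1 and 3471 CPM in replicate 2. The GGUAGAC pair, Mir379 and Mir1193, summed to 3248 and 1886 CPM, although Mir1193 itself was higher in replicate 2. The UGGAUAU pair, Mir376c and Mir376b, summed to 93.7 and 35.3 CPM, and the GGUUGUC pair, Mir494 and Mir410, to 62.0 and 38.4 CPM. Both members of this last pair were higher in replicate 1. These sums are over hairpins and count reads of both arms, and leave out reads placed at more than 1 position, so they are not counts of the reads that carry the seed.

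The proximal cluster of the domain was the comparison nearest in kind. It was taken as the miRNA genes on the same strand that start in the 300 kb before the lower bound of the rule, and holds 20 genes, 13 of them detected. It had 25531 and 22894 counts, or 0.599% and 0.4995% of the counts on named genes (mean 0.549% ± 0.0705, SD, n = 2). The Mir379 to Mir410 cluster thus had 1.75 times its counts in replicate 1 and 1.56 times in replicate 2. Mir127, which lies antisense to Rtl1, had 3591 ± 531 CPM (SD, n = 2), above Mir379. Mir431 had 530 ± 125 CPM and Mir434 had 524 ± 10.7 CPM. Median mean CPM over the detected genes was 54.7 in the proximal cluster, 49.7 in the Mir379 to Mir410 cluster and 85.1 over all 346 detected genes.

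The proximal cluster also had a lower share in replicate 2. Its summed log2 ratio was -0.20 (-0.22 to -0.17) and its median -0.24. Of its 13 tested genes, 5 were higher in replicate 1 and 2 in replicate 2, against 29.1% and 26.1% of all genes tested. Mir127 had a log2 ratio of -0.24 and Mir431 of -0.42, both called by the exact binomial test, and Mir434 had 0.025 and was not called. The 2 genes higher in replicate 2 were Mir337 (0.55) and Mir341 (0.63). Both clusters thus held genes higher in replicate 1, genes higher in replicate 2 and genes not called. The Sfmbt2 cluster, another large miRNA cluster of an imprinted gene, has 119 genes, of which 7 were detected, and held 0.164% and 0.128%. In this cluster 102 genes had no count in either library. Reads placed at more than 1 position are not counted on genes, so near-identical copies in it would be undercounted. Its values may therefore not be comparable with those of the Dlk1-Dio3 clusters.

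The depth and make-up of the libraries bear on these values. Replicate 1 had 10782737 reads and replicate 2 had 10201509, of which 4260561 (39.5%) and 4583025 (44.9%) were counted on miRNA genes. The heart muscle markers Mir499, Mir208a and Mir208b, which lie in myosin genes, had mean levels of 4784, 2162 and 1144 CPM. The other 4 genes of that list were lower, with Mir1a-2 at 48.4 CPM, Mir133a-1 at 5.18, Mir1a-1 at 2.60 and Mir133a-2 at 1.14. In the neuronal list, 16 of 17 names were found, and 3 Mir124a genes, Mir9-1 and Mir9-2 were at 0. The list held 0.0215% and 0.0275% of the counts. Reads placed at more than 1 position are not counted on genes. Genes with copies of the same mature sequence, numbered as in Mir1a-1 and Mir1a-2, can thus be undercounted, here and in the lists below. Low values or 0 for such genes therefore do not show absence.

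Marker lists of several cell types also differed in share between the hearts, and each of their genes had counts in at least 1 library. The 7 heart muscle genes held 0.970% of the counts in replicate 1 and 0.660% in replicate 2. The 9 fibroblast and mesenchymal genes held 1.87% and 1.04%, with Mir21a at 57416 and 19466 counts. Without Mir21a, set aside after its values were seen, the other 8 held 0.521% and 0.616%, and over the whole list 2 genes were higher in replicate 1 and 5 in replicate 2. Of the heart muscle genes, 4 were higher in replicate 1 and 1 in replicate 2. The 2 smooth muscle genes held 5.37% and 3.60%. The 3 endothelial genes held 8.76% and 13.9%, with Mir126a higher in replicate 2, while the other 2, Mir221 and Mir222, were higher in replicate 1 and held 0.128% and 0.0635%. The 7 blood genes held 0.285% and 0.350%, with 5 of them higher in replicate 2. Their part in the difference of the cluster was not tested. In whole tissue, fewer cells of a type and less RNA per cell cannot be told apart.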

How the data were processed

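For each library the authors deposited a table of raw read counts per miRNA gene, on mm10 and GENCODE M21 per the file headers. No source used here names the aligner or the counting program. Each table has 3 count columns (without regard to strand, gene strand, opposite strand) and 4 category rows, among them reads placed at more than 1 position, which were left out of library sizes. The gene-strand column was used. All 2202 IDs matched M21, which gave symbols, coordinates and hairpins. In 5 members, a miRNA gene is annotated on the opposite strand.

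CPM were computed over counts on named genes, and ratios with TMM factors from edgeR 4.0.16 (R 4.3.3). The exact two-sided binomial test (scipy 1.17.1) was used because 1 group of 2 libraries leaves no residual degrees of freedom for comparing them, and was tested on simulated data. It measures counting noise between these 2 samples. DESeq2 1.42.0 size factors were an alternative. These were 1 for both libraries, so that alternative compared the raw counts without scaling. Named were the 20 members of highest mean CPM, members of seed pairs, and the 5 with the largest ratio in each direction at a summed count of 100 or more, with members near 0 and those of known role added. The members and lists were chosen with earlier results of these data known.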

Additional observations from a re-analysis of the deposited data

Results flagged for a closer look

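Reads outside the main measurement were numerous in both libraries. Reads placed at more than 1 position numbered 4193785 in replicate 1 (38.9% of all reads) and 3872896 in replicate 2 (38.0%). Reads outside annotated miRNA genes numbered 507613 (4.71%) and 499225 (4.89%). How many of these came from the Mir379 to Mir410 cluster was not tested. On the opposite strand, the 39 members had 1 read in replicate 1 and 0 in replicate 2.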

How the results depend on the processing

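The cluster's mean share was 1.22% with the column without regard to strand and 0.383% over all reads, and ran from 0.779% to 1.05% when either replicate was left out. The number of members detected was 33 without either replicate. With a 2-fold minimum added, the calls fell to 1 in either direction (3.03% of members tested, against 10.7% of all genes tested). That was 1 higher in replicate 1 and 0 higher in replicate 2. Without that minimum the exact binomial test called 7 members higher in replicate 2 (21.2%, against 26.1% of all genes). The median log2 ratio was -0.24 in the column without regard to strand, where the 5 members with a gene on the opposite strand have 0 counts, and the summed log2 ratio was -0.064 without Mir379 and Mir411 (chosen after seeing the data). For values of the whole cluster, 31 other alternatives were classed as the same. This class allowed a change of up to 1.5-fold in numbers of members, 0.1 in log2 ratios or rho, and 1 SD in the share. It includes 26 members detected at 50 or more counts, in place of 33. It also includes 13 members called higher in replicate 1 with total counts, in place of 10. Under that scaling the median log2 ratio over all genes tested was -0.082, in place of -0.015 with TMM. The share of all genes called under it is not given here. Among alternatives for differences of named members, 115 kept their direction or lack of a call, Mir541 gained one with total counts (-0.07), and Mir154 (1 alternative) and Mir410 (2) lost theirs. No called difference changed sign. With DESeq2 size factors the uncalled log2 ratios of Mir541 and Mir485 became 0.035 and 0.013. Of the levels of named members, 48 moved beyond the spread between replicates and 36 did not: over all reads Mir379 had 1043 CPM, and without regard to strand Mir299a, Mir409, Mir376a and Mir380 had 0. No paired analysis was possible because the labels give a single group. Depth limits the members under 10 CPM.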
